A study of Mus musculus with 2 samples.

Results

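Arginine sits at a branch point of myeloid metabolism, and 6 genes of that branch point, Arg1, Arg2, Nos2, Slc7a2, Ass1 and Odc1, were followed here in single immune cells from mouse tumors. The members were chosen as named symbols, with earlier results of these data known, and all 6 of 6 were found among the 32285 mouse genes counted. The cells came from 143B tumors, a human osteosarcoma cell line grown subcutaneously in the right flank of female nude mice, 4 weeks old at inoculation, which lack T cells. One group received 10 mg/kg of a human IgG1 isotype control (control IgG) and the other 10 mg/kg of anti-CD3L1, an antibody against CD3L1 (ITPRIPL1), every 3 days and 4 times in all. Tumors were taken apart, CD45-positive cells were picked with magnetic beads, and 1 droplet-based library was made per group, each from 3 pooled tumors. With 1 library per group, treatment, library and tumor pool cannot be told apart, no test across samples could be made, and no p-value was computed. Intervals in square brackets are exact 95% intervals over UMIs (unique molecular identifiers, each marking 1 captured transcript) or cells, and they cover counting error only.

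Slc7a2 is a cationic amino acid transporter that brings arginine into the cell. Inside, the arginases Arg1 (cytosolic) and Arg2 (mitochondrial) cut arginine to ornithine and urea, while Nos2, the inducible nitric oxide synthase, turns the same substrate into nitric oxide and citrulline. Ass1 starts the rebuilding of arginine from citrulline, and Odc1 takes ornithine into the polyamines, a rate-limiting step. In mouse macrophages Arg1 is a classic gene of interleukin-4 and hypoxia responses and Nos2 a classic gene of interferon and bacterial responses, so that the pair is often read as a polarization axis.

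Cells were kept with at least 500 UMIs, over 200 and under 6000 genes and under 5% mitochondrial UMIs, which left 8557 cells of the control IgG library (median 5526 UMIs) and 11269 of the anti-CD3L1 library (median 8267 UMIs), with 26 barcodes in common. Marker gates that used none of the 6 genes called 5545 cells (64.8%) neutrophil-like in control IgG and 494 (4.38%) in anti-CD3L1. Mononuclear phagocytes were split into monocyte-like cells (1109 and 2222, in this order of libraries), C1q macrophage-like cells (438 and 3867), which carry the complement genes C1qa, C1qb and C1qc, and C1q-low phagocytes (496 and 1324), which have few UMIs of C1q and of monocyte genes. NK-like cells numbered 141 and 902. Smaller classes reached 50 cells in the anti-CD3L1 library only, among them 144 ILC-like (innate lymphoid) cells. Fibroblast-like cells, which a CD45 sort leaves out, numbered 0 and 22, and T-like cells numbered 3 and 4. Median depth differed between the libraries within classes, with 4518 and 2146.5 UMIs in neutrophil-like cells and 11989 and 7699 in monocyte-like cells. Levels are therefore given as CPM (the UMIs of a gene scaled to 1000000 UMIs of the class), and shares of cells with a UMI after thinning each cell to 1000 UMIs. The border between monocyte-like cells and C1q-low phagocytes was the least sharp, with 20.7% and 25.4% of the cells of both classes lying within 1.5-fold of the threshold.

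Arg1 was found mainly in mononuclear phagocytes, and it was lower in the anti-CD3L1 library in the sum over them. In the control IgG library its level was 271 CPM [258, 285] in C1q-low phagocytes, 143 [137, 149] in monocyte-like cells and 79.0 [72.0, 86.5] in C1q macrophage-like cells. The same classes of the anti-CD3L1 library held 57.5 [52.9, 62.4], 19.3 [17.3, 21.4] and 62.4 [59.8, 65.0] CPM. The order of the classes thus differed: C1q-low phagocytes led in control IgG by 1.90-fold [1.78, 2.03] over monocyte-like cells, whereas in anti-CD3L1 the ILC-like cells (77.4 CPM [61.2, 96.6]) came first, then C1q macrophage-like cells and C1q-low phagocytes, and neither step between neighbours in this order was beyond counting error. Type 2 innate lymphoid cells are known to carry Arg1. Over all mononuclear phagocytes the level was 157 CPM in control IgG and 49.8 CPM in anti-CD3L1, 3.16-fold lower [3.01, 3.31].

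Other cells held little Arg1. Neutrophil-like cells had 1.95 CPM [1.49, 2.51] in control IgG, from 61 UMIs, and 0 UMIs in 494 cells of anti-CD3L1, which allows up to 2.26 CPM. NK-like cells had 3 and 11 UMIs (1.73 and 1.25 CPM), and the cDC1-like and mature DC-like cells of the anti-CD3L1 library had 0 UMIs. Barcodes with at most 100 UMIs, which hold free RNA, had 44.9 CPM of Arg1 in control IgG and 32.7 CPM in anti-CD3L1, above the level in neutrophil-like and NK-like cells of either library and, in anti-CD3L1, above that in monocyte-like cells. Scaled by the neutrophil genes S100a8 and S100a9, free RNA was set at 5.64% of the monocyte-like UMIs in control IgG and 27.7% in anti-CD3L1. This scaling counts every UMI of both genes in a class as free, so any made by the cells themselves raises the share. In anti-CD3L1 it set 2.05% in NK-like and 8.23% in C1q macrophage-like cells. With free RNA subtracted in this way, the log2 ratio of Arg1 in monocyte-like cells was −3.40.

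**Figure D1:**
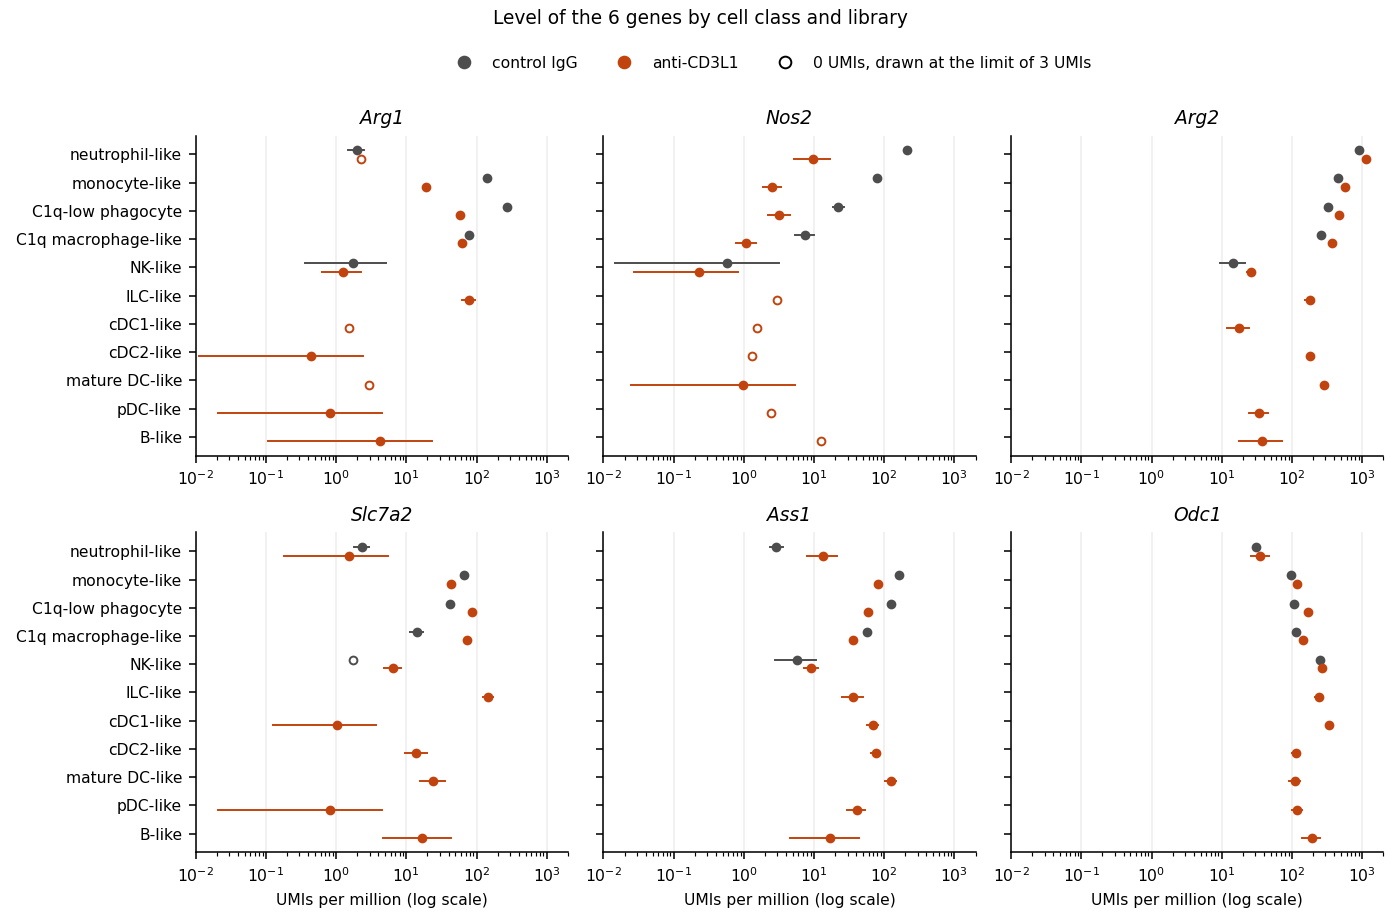
Level of each gene (x axis, CPM, log scale) in each cell class with at least 50 cells, with control IgG in grey and anti-CD3L1 in orange; points are class sums, lines are exact 95% Poisson intervals, and open points are 0 UMIs drawn at the limit of 3 UMIs. Nos2 sits at 211 CPM in neutrophil-like cells of control IgG and at 9.80 CPM in those of anti-CD3L1, and Arg1 is near 0 outside the phagocytes and the ILC-like cells.

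Arg1 RNA was concentrated in few cells. In control IgG, 54 of 1109 monocyte-like cells (4.87%) had 10 or more Arg1 UMIs, they held 84.2% of the Arg1 UMIs of the class, and the highest cell had 119. In anti-CD3L1, 6 of 2222 such cells (0.270%) reached 10 UMIs and the highest had 45. The C1q-low phagocytes showed the same contrast, with 47 cells (9.48%) in control IgG and 11 (0.831%) in anti-CD3L1. C1q macrophage-like cells did not: 10 cells (2.28%) reached 10 UMIs in control IgG and 61 (1.58%) in anti-CD3L1. These counts are not thinned, and the cells of control IgG were deeper. Median UMIs were 11989 and 7699 in monocyte-like cells, 12088 and 7593.5 in C1q-low phagocytes and 13664 and 9426 in C1q macrophage-like cells. After thinning, the share of cells with any Arg1 UMI was 6.26% [4.90, 7.86] and 1.55% [1.08, 2.16] in monocyte-like cells, 14.1% [11.2, 17.6] and 4.38% [3.32, 5.67] in C1q-low phagocytes, and 4.39% [2.66, 6.77] and 4.10% [3.49, 4.78] in C1q macrophage-like cells. NK-like cells, a class not known for Arg1 and thinned alike, had 0 of 141 and 1 of 902 cells with an Arg1 UMI.

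**Figure D2:**
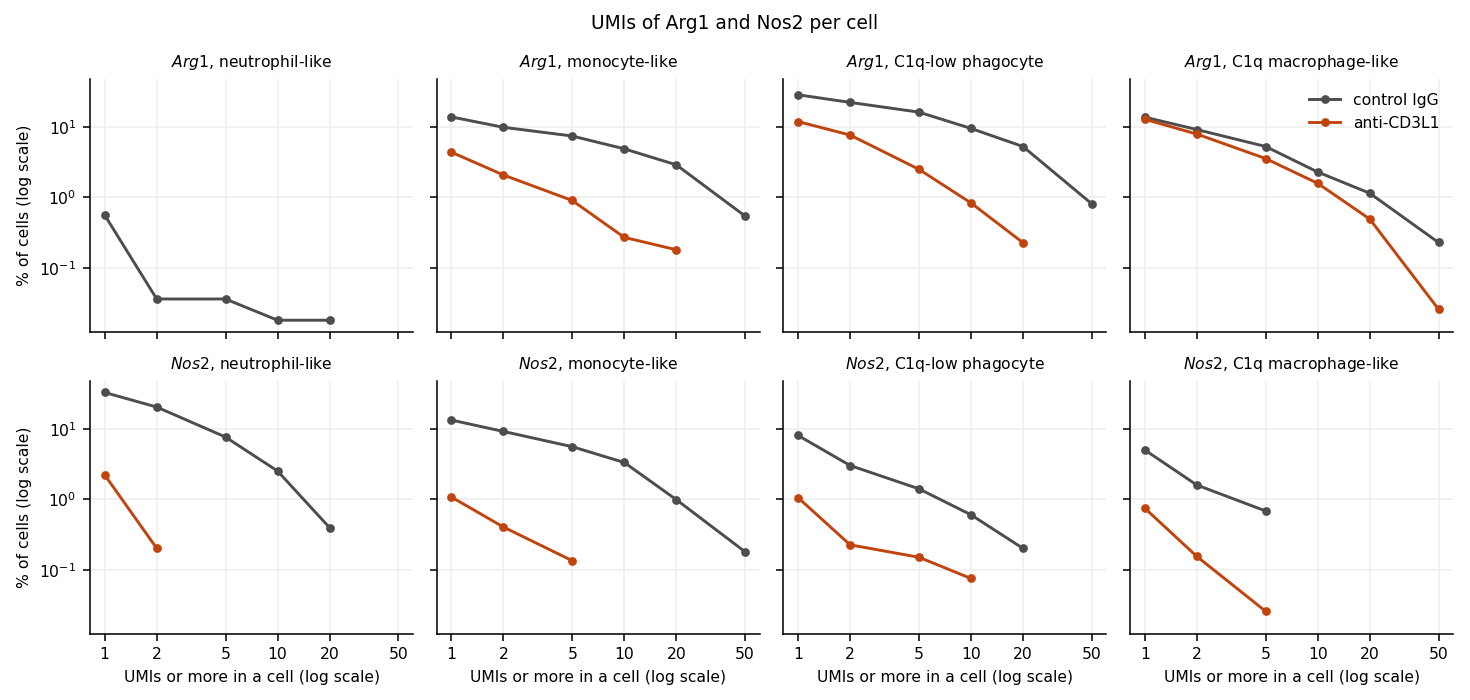
Share of cells (y axis, percent, log scale) with at least a given number of UMIs (x axis, log scale) of Arg1 (upper row) and Nos2 (lower row) in 4 classes, control IgG in grey and anti-CD3L1 in orange. Cells are not thinned, and those of control IgG were deeper in each class. At 10 or more UMIs, 4.87% of control IgG and 0.270% of anti-CD3L1 monocyte-like cells remain for Arg1, and at 5 or more UMIs 7.66% and 0 of neutrophil-like cells for Nos2.

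As a ratio of anti-CD3L1 over control IgG, Arg1 stood at −2.89 on the log2 scale [−3.06, −2.72] in monocyte-like cells (7.42-fold lower), at −2.24 [−2.38, −2.10] in C1q-low phagocytes and at −0.34 [−0.48, −0.20] in C1q macrophage-like cells. The median over all genes tested was 0.23, 0.05 and 0.03 in these classes. Among those genes, 2.4%, 2.64% and 3.23% were 2-fold or more lower and 6.79%, 6.4% and 4.72% were 2-fold or more higher. The split between the classes rests on the gates. When cells were instead classed by graph clusters built without the 6 genes, the log2 ratio was −3.59 in monocyte-like clusters, 0.04 in C1q-low clusters and 0.60 in C1q macrophage-like clusters, while the sum over mononuclear phagocytes stood at −1.54 against −1.66 with the gates. So the lower level of Arg1 held for monocyte-like cells under both ways of classing, and not for the other phagocyte classes. The sum over mononuclear phagocytes depends little on how cells are divided among its classes. The clusters were also named by the most frequent gate of their cells. The closeness of the values of the sum therefore says little. The C1q-low phagocytes also had different leading genes in the libraries, Arg1 itself, Dst and St18 in control IgG and Ctsk, Spp1 and Il10 in anti-CD3L1. Without the cells of 10 or more Arg1 UMIs, the log2 ratio over mononuclear phagocytes was −0.31.

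Arg2, the mitochondrial arginase, was the broadest of the arginases and was led by neutrophils. It reached 916 CPM [905, 927] in neutrophil-like cells of control IgG and 1121 CPM [1064, 1179] in those of anti-CD3L1. Monocyte-like cells followed at 460 and 568 CPM, C1q-low phagocytes at 331 and 470 CPM and C1q macrophage-like cells at 257 and 367 CPM, an order that was the same in both libraries with each step beyond counting error. NK-like cells had 14.4 and 26.2 CPM. Barcodes of at most 100 UMIs held 515 CPM of Arg2 in control IgG, above each phagocyte class of that library, and 338 CPM in anti-CD3L1. With free RNA subtracted as for Arg1, with the limit given there, the ratios of Arg2 between libraries kept their sign in the phagocyte classes. The part of free RNA in its levels was not tested further. After thinning, an Arg2 UMI was found in 57.8% and 66.1% of neutrophil-like cells, in 34.5% and 42.1% of monocyte-like cells and in 0.709% and 1.55% of NK-like cells. Unlike Arg1, Arg2 was spread over the cells of its classes: without thinning, 93.1% and 82.0% of neutrophil-like cells had a UMI of it.

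Within classes Arg2 was somewhat higher in anti-CD3L1, and over all cells it was lower. The log2 ratio was 0.29 [0.21, 0.37] in neutrophil-like cells, below the median of 0.54 over all genes of that class, and 0.51 in both C1q-low phagocytes and C1q macrophage-like cells, above medians of 0.05 and 0.03. Over all cells together it was −0.73, with 616 CPM in control IgG and 371 CPM in anti-CD3L1. The source of the RNA differed: neutrophil-like cells gave 69.0% of the Arg2 UMIs in control IgG and 4.10% in anti-CD3L1, where C1q macrophage-like cells gave 37.3% and monocyte-like cells 27.6%. The share of neutrophil-like cells thus moved with the value over all cells.

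Nos2 had the largest difference between the libraries among the 6 genes, over mononuclear phagocytes as over all cells, and it was a gene of neutrophil-like and monocyte-like cells. In control IgG it stood at 211 CPM [206, 216] in neutrophil-like cells, 78.0 [73.4, 82.9] in monocyte-like cells, 22.3 [18.6, 26.5] in C1q-low phagocytes and 7.38 [5.36, 9.91] in C1q macrophage-like cells, each class beyond counting error from the next. In anti-CD3L1 the same classes held 9.80 [5.22, 16.8], 2.55 [1.86, 3.41], 3.19 [2.18, 4.5] and 1.08 [0.775, 1.48] CPM. NK-like cells had 1 UMI in control IgG and 2 in anti-CD3L1. The ILC-like, cDC1-like, cDC2-like, pDC-like and B-like cells of anti-CD3L1 had 0. All cells of the control IgG library together held 8510 Nos2 UMIs and those of anti-CD3L1 held 159.

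In neutrophil-like cells the level of Nos2 was 21.5-fold lower in anti-CD3L1 [12.6, 40.4], a log2 ratio of −4.43 in a class where 2.96% of 8752 genes were 2-fold or more lower and 27.8% were 2-fold or more higher. Its 13 UMIs in anti-CD3L1 came from 494 cells, and without thinning 0 of these cells had more than 3 UMIs. In control IgG, 140 of 5545 unthinned cells (2.52%) had 10 or more and the highest had 46. After thinning, 13.2% [12.3, 14.1] of control IgG and 0.656% [0.136, 1.91] of anti-CD3L1 neutrophil-like cells had a Nos2 UMI, against 0 and 0.111% of NK-like cells. The neutrophil-like cells of the libraries also differed in genes of secondary granules, which mark younger neutrophils and were looked at after their values were seen. Camp, an antimicrobial peptide, stood at 44.9 and 846 CPM, Ngp at 237 and 1595 CPM and Ltf at 41.8 and 661 CPM. In anti-CD3L1 8 of 494 cells held 1118 of 1122 Camp UMIs and 2098 of 2116 Ngp UMIs. Other granule genes did not follow, with Lcn2 at 9417 and 2079 CPM and Mmp8 at 235 and 225 CPM. Cells with any UMI of Camp, Ltf or Ngp made up 23.4% of the class in control IgG and 9.92% in anti-CD3L1. Without those cells Nos2 was at 201 and 9.85 CPM, a log2 ratio of −4.35.

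In monocyte-like cells Nos2 was 30.6-fold lower [22.7, 42.2], a log2 ratio of −4.94. In the C1q-low phagocytes it was 7.0-fold lower and in C1q macrophage-like cells 6.81-fold lower. As with Arg1, few cells carried most of it. Without thinning, 37 of 1109 monocyte-like cells of control IgG had 10 or more UMIs and held 72.2% of the Nos2 UMIs. In anti-CD3L1, 0 of 2222 had more than 6. The direction was the same under graph clusters in each of these classes, with log2 ratios from −1.62 in C1q macrophage-like clusters to −4.99 in monocyte-like clusters.

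Neutrophil RNA outside cells was far more abundant in control IgG, where the 9 neutrophil markers summed to 75763 CPM in barcodes of at most 100 UMIs, against 1806 CPM in anti-CD3L1. These barcodes held 86.4 and 1.73 CPM of Nos2. All 9 markers were also found in each phagocyte class of both libraries, where they summed to between 2466 and 4479 CPM in control IgG and between 220 and 654 CPM in anti-CD3L1. In control IgG, Nos2 stood at 1.21 UMIs per 1000 UMIs of S100a8 and S100a9, the most abundant neutrophil genes, in these barcodes, at 1.24 in neutrophil-like cells and at 0.702, from 1 Nos2 UMI, in NK-like cells. The monocyte-like cells had 19.4 per 1000, C1q-low phagocytes 10.0 and C1q macrophage-like cells 3.22. The part of free RNA in the result for Nos2 was not tested. With free RNA subtracted by these genes, a scaling with the limit given for Arg1, the log2 ratio of Nos2 in monocyte-like cells was −4.76.

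**Figure D3:**
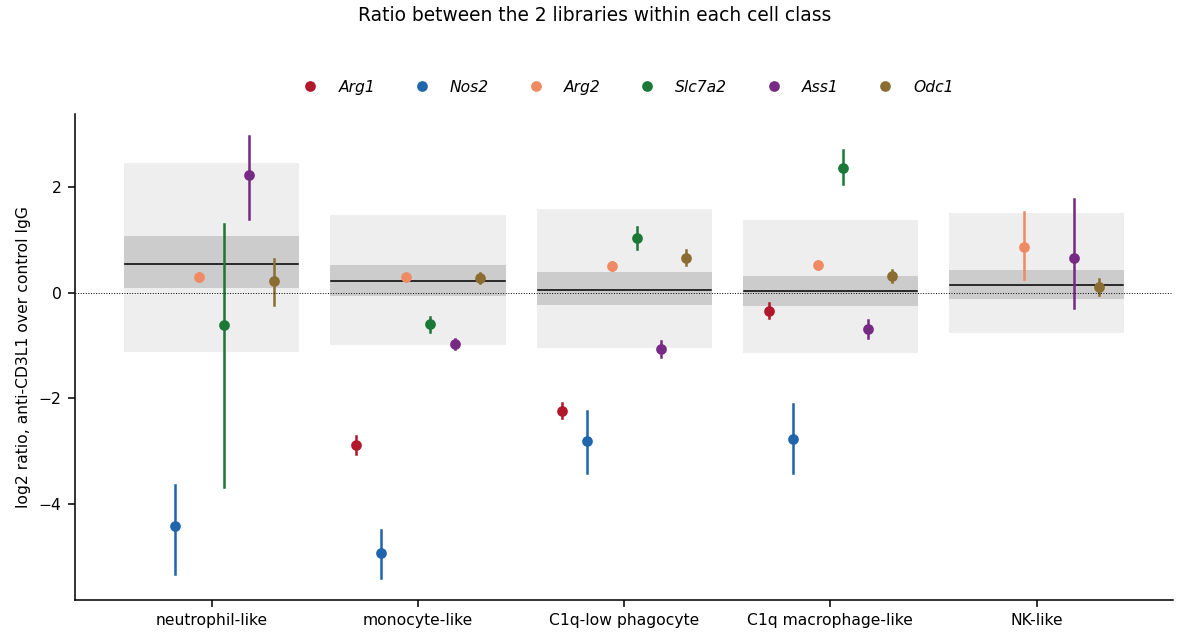
Log2 ratio of CPM, anti-CD3L1 over control IgG (y axis), of the 6 genes in 5 cell classes (x axis), with exact 95% intervals; the dark and pale boxes hold the middle 50% and 95% of all genes tested in the class and the black line is their median. Nos2 lies below the pale box in all 4 myeloid classes, Arg1 and Ass1 do so in monocyte-like cells and C1q-low phagocytes, and Slc7a2 lies above it in C1q macrophage-like cells.

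Arg1 and Nos2 UMIs were found together in some cells of the control IgG library. Among its monocyte-like cells thinned to 1000 UMIs, 9 of 69 cells with an Arg1 UMI also had a Nos2 UMI (13% [6.14, 23.3]), against 3.97% of cells without Arg1, where the product of the separate shares gives 3.13 cells. Without thinning, 58 of 153 did (37.9% [30.2, 46.1]), against 9.41%, with a product of 20.4 cells. Counting only cells with 2 or more UMIs of each gene, 31 of 109 did (28.4% [20.2, 37.9]), against 7.1%. Median depth was close, at 12112 UMIs in cells with Arg1 and 11984 in cells without it. Barcodes of at most 100 UMIs in control IgG held 86.4 CPM of Nos2, above the 78.0 CPM of its monocyte-like cells. The part of free neutrophil RNA and of doublets in this overlap was not tested.

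The other classes had fewer such cells. In C1q-low phagocytes of control IgG, 3 of 68 thinned cells with Arg1 had Nos2 (4.41%), against 1.45%, and 18 of 141 without thinning (12.8% [7.74, 19.4]), against 6.20%. In C1q macrophage-like cells 0 of 19 thinned cells with Arg1 had Nos2, and 5 of 60 without thinning. Neutrophil-like cells showed no such excess, since 9 of 31 unthinned cells with Arg1 had Nos2 (29.0%) against 32.9% of those without. In anti-CD3L1, double-positive cells were rare: 11 of 748 mononuclear phagocytes with Arg1 had Nos2 without thinning (1.47% [0.736, 2.62]), against 0.84% of those without Arg1, and after thinning 1 of 244. These shares count cells of 1 library each and have no replicate.

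**Figure D4:**
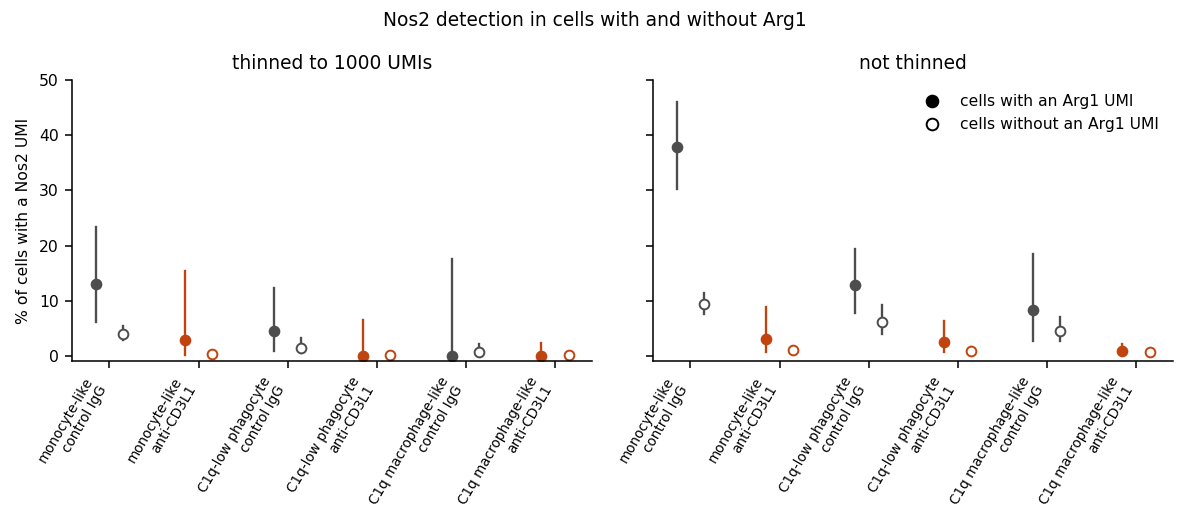
Share of cells with a Nos2 UMI (y axis, percent) among cells with (filled) and without (open) an Arg1 UMI, by phagocyte class and library, with each cell thinned to 1000 UMIs (left) or not thinned (right); lines are exact 95% binomial intervals. In control IgG monocyte-like cells the filled point lies at 13% against 3.97% after thinning and at 37.9% against 9.41% without it.

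Other pairs with Arg1 or Nos2 were counted in thinned monocyte-like cells of control IgG. Of 50 cells with Nos2, 12 had the arginine importer Slc7a2 (24.0% [13.1, 38.2]), against 4.09% of cells without. By level, Ass1 was higher in cells with Nos2 too, at 303 CPM against 157 CPM in cells without. Slc7a2 was likewise higher in cells with Arg1, at 127 CPM against 62.0 CPM in cells without. Arg2 was found in 46.0% of cells with Nos2 and 33.9% of cells without. Arg2 was found in 33.3% [22.4, 45.7] of cells with Arg1 and 34.6% of cells without, and its level was 584 CPM in the former and 451 CPM in the latter. Odc1 was found in 4.35% [0.906, 12.2] of cells with Arg1 and 9.49% of cells without, a difference within counting error.

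Slc7a2, the arginine importer, went in different directions in different phagocytes. C1q macrophage-like cells held 14.1 CPM [11.2, 17.4] in control IgG, from 84 UMIs, and 72.8 CPM [70.0, 75.6] in anti-CD3L1, from 2684 UMIs, which is 5.16-fold higher [4.16, 6.49]. C1q-low phagocytes held 42.6 and 86.7 CPM, 2.04-fold higher [1.77, 2.36]. Monocyte-like cells held 66.6 and 43.8 CPM, 1.52-fold lower [1.38, 1.67]. Under graph clusters the log2 ratio was 1.06 in C1q macrophage-like, 2.36 in C1q-low and 0.15 in monocyte-like clusters, so that the higher level in the first pair of classes held and the lower level in monocyte-like cells did not. In the control IgG library monocyte-like cells led, while in anti-CD3L1 the ILC-like cells led at 148 CPM [125, 174], with 7 of 144 cells holding 81.2% of these UMIs. Neutrophil-like cells had 2.31 and 1.51 CPM and NK-like cells 0 UMIs, which allows up to 1.73 CPM, and 6.39 CPM. Barcodes of at most 100 UMIs held 12.5 CPM of Slc7a2 in control IgG, near the level in its C1q macrophage-like cells, and 36.1 CPM in anti-CD3L1. With free RNA subtracted as for Arg1, with the limit given there, the phagocyte ratios of Slc7a2 kept their sign. The part of free RNA in these ratios was not tested further.

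Inhba, a subunit of activins and one of the markers listed for C1q-low macrophages, was used to split the phagocytes, a choice made with earlier results of these data known. An Inhba UMI was found in 495 of 1109 monocyte-like cells and 109 of 496 C1q-low phagocytes of control IgG. The same classes of anti-CD3L1 had 599 of 2222 and 377 of 1324, so Inhba did not single out the C1q-low class here. In control IgG, Arg1, Nos2 and Slc7a2 were higher in the cells with an Inhba UMI in each phagocyte class. C1q-low phagocytes of control IgG with an Inhba UMI (109 cells) held 553 CPM of Arg1, 77.2 of Nos2 and 117 of Slc7a2, against 189, 6.26 and 20.8 CPM in those without (387 cells). Monocyte-like cells with Inhba held 194 CPM of Arg1, 148 of Nos2 and 104 of Slc7a2, against 98.4, 17.7 and 34.1 CPM without, at median depths of 12155 and 11806 UMIs. In control IgG the neutrophil gene S100a8 stood at 2841 CPM with Inhba and 889 CPM without in C1q-low phagocytes. It was at 2977 and 646 CPM in C1q macrophage-like cells and at 3222 and 2247 CPM in monocyte-like cells. S100a9, another neutrophil gene, went the other way in C1q-low phagocytes, at 506 and 1016 CPM. It was at 3197 and 884 CPM in C1q macrophage-like cells and at 1368 and 1269 CPM in monocyte-like cells. The part of neutrophil RNA in the contrast of Nos2 was not tested. In anti-CD3L1 the level of Slc7a2 followed Inhba as well, at 144 and 48.6 CPM in C1q macrophage-like cells and 93.0 and 23.5 CPM in monocyte-like cells. Arg1 of that library was higher with Inhba in C1q-low phagocytes, at 93.1 and 38.7 CPM, and in C1q macrophage-like cells, at 88.7 and 53.4 CPM. In its monocyte-like cells Arg1 was close, at 21.5 CPM with Inhba and 18.3 CPM without. Between libraries, Nos2 was lower in anti-CD3L1 in all 6 strata, from 3.44-fold in C1q-low phagocytes without Inhba to 28.2-fold in monocyte-like cells with it. Slc7a2 in monocyte-like cells with Inhba had a log2 ratio of −0.16 [−0.34, 0.01], within counting error of 0.

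**Figure D5:**
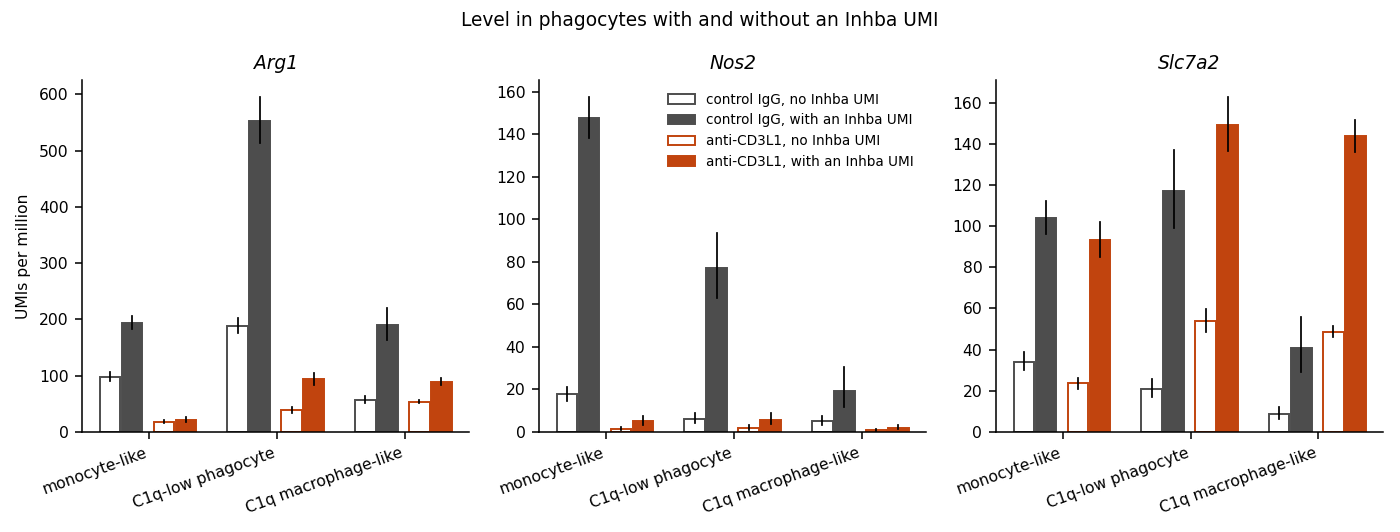
Level of Arg1, Nos2 and Slc7a2 (y axes, CPM, each from 0) in phagocytes without (open bars) and with (filled bars) an Inhba UMI, by class, control IgG in grey and anti-CD3L1 in orange, with exact 95% Poisson intervals. The tallest Arg1 bar, 553 CPM, is that of control IgG C1q-low phagocytes with Inhba, and the tallest Nos2 bar, 148 CPM, that of control IgG monocyte-like cells with Inhba.

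Ass1, which starts the recycling of citrulline, was lower in anti-CD3L1 in each phagocyte class. It stood at 163 CPM [156, 170] and 82.6 CPM [78.4, 87.0] in monocyte-like cells, at 125 and 59.4 CPM in C1q-low phagocytes and at 57.7 and 35.8 CPM in C1q macrophage-like cells. The log2 ratios were −0.98 [−1.08, −0.88], −1.07 [−1.23, −0.91] and −0.69 [−0.86, −0.51]. Under graph clusters they were −0.98, −0.03 and −1.49. Barcodes of at most 100 UMIs held 50.8 CPM of Ass1 in control IgG and 44.9 CPM in anti-CD3L1. The latter is above the 35.8 CPM of C1q macrophage-like cells in that library. With free RNA subtracted as for Arg1, with the limit given there, the ratios of Ass1 in the phagocyte classes kept their sign. The part of free RNA in its levels was not tested further. Unlike Arg1 and Nos2, Ass1 was spread over the class, since 18 of 1109 monocyte-like cells of control IgG had 10 or more UMIs and held 9.79% of them, while 68.5% of these cells had a UMI. Thinned shares were 14.9% [12.8, 17.1] and 7.52% [6.45, 8.71]. In anti-CD3L1 the mature DC-like cells led at 124 CPM [103, 147], followed by monocyte-like, cDC2-like (75.7 CPM) and cDC1-like cells (68.6 CPM), with no step between neighbours of these 3 beyond counting error. Neutrophil-like cells had 91 and 18 UMIs (2.92 and 13.6 CPM), a log2 ratio of 2.22 that was −2.11 under graph clusters.

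Among classes of at least 50 cells, Odc1 was highest in NK-like cells of control IgG and in cDC1-like cells of anti-CD3L1. NK-like cells held 255 CPM [231, 279] in control IgG and 273 CPM [262, 284] in anti-CD3L1, a log2 ratio of 0.10 [−0.05, 0.25] that did not differ from 0 beyond counting error. In anti-CD3L1 the cDC1-like cells led at 340 CPM [314, 366], above NK-like cells, which did not differ from ILC-like cells (244 CPM), nor these from B-like cells (190 CPM). The other dendritic classes of anti-CD3L1 held 115 CPM (cDC2-like), 110 CPM (mature DC-like) and 119 CPM (pDC-like). Phagocytes of the control IgG and anti-CD3L1 libraries held 98.4 and 119 CPM in monocyte-like cells, 106 and 168 CPM in C1q-low phagocytes and 116 and 144 CPM in C1q macrophage-like cells. Their log2 ratios, 0.27, 0.66 and 0.31, were above 0 beyond counting error, beside medians over all genes of 0.23, 0.05 and 0.03. Barcodes of at most 100 UMIs held 85.5 CPM [77.0, 94.5] of Odc1 in control IgG and 156 CPM [146, 166] in anti-CD3L1. With free RNA subtracted as for Arg1, with the limit given there, the phagocyte ratios of Odc1 kept their sign. The part of free RNA in these ratios was not tested further. Neutrophil-like cells had 30.4 and 35.4 CPM.

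Counted as 2-fold differences, 3 of the 6 members (Arg1, Nos2 and Ass1) were lower in anti-CD3L1 and 0 higher over mononuclear phagocytes. Of 13534 genes there, 2.68% were lower and 7.23% higher. The log2 ratio of Ass1 in this sum, −1.31, lay beyond that of each class, at −0.98 in monocyte-like, −1.07 in C1q-low and −0.69 in C1q macrophage-like cells. C1q macrophage-like cells, which held the least Ass1 of these classes, were 438 of 2043 mononuclear phagocytes in control IgG and 3867 of 7413 in anti-CD3L1. The part of the class make-up in the sum was not tested. The members were chosen with earlier results of these data known, so the counts of this paragraph are a description and not a test. Monocyte-like cells had 2 lower (Arg1 and Nos2), where 2.4% of genes were lower and 6.79% higher. C1q-low phagocytes had 3 lower (Arg1, Nos2 and Ass1) and 1, Slc7a2, higher, where 2.64% were lower and 6.4% higher. Under graph clusters Arg1 and Ass1 were no longer 2-fold lower in this class. C1q macrophage-like cells had 1 lower, Nos2, and 1 higher, Slc7a2, where 3.23% were lower and 4.72% higher. Neutrophil-like cells had Nos2 lower and Ass1 higher, where 2.96% of genes were lower and 27.8% higher, so the 1 higher member does not exceed that share. Ass1 there rested on 91 and 18 UMIs, and its direction turned under graph clusters. NK-like cells had 1 of 4 members with enough UMIs higher (Slc7a2, 0 UMIs in control IgG) and 0 lower. In that class 6.16% of genes were 2-fold or more higher and 1.28% lower. Over all cells together, Nos2 was 77.9-fold lower and Slc7a2 2.53-fold higher, where 6.27% of 15577 genes were 2-fold or more lower and 32.1% higher.

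Few other genes of the arginine pathway differed by 2-fold, where over mononuclear phagocytes 2.68% of 13534 genes were lower and 7.23% higher. At such shares lists this short hold few called genes, so their counts are no result about the pathway. Of 53 other listed genes, 52 were found in the files. Over mononuclear phagocytes 0 of 5 other arginine and ornithine transporters passed 2-fold, and Slc3a2, the heavy chain that arginine exchangers share, stood at 248 and 304 CPM. Of the urea cycle genes 1 of 4 had enough UMIs, Asl, which completes the step that Ass1 starts, at 31.3 and 39.5 CPM. Among nitric oxide synthases, cofactor enzymes and inhibitors 0 of 7 passed, with Gch1, which makes the cofactor tetrahydrobiopterin, at 181 and 167 CPM. None of 12 polyamine genes passed (0 higher, 0 lower), with the antizyme Oaz1 at 632 and 697 CPM. The same held for 4 genes from ornithine to proline and glutamate, with Oat at 40.6 and 35.2 CPM, and for 2 creatine genes, with Gatm at 99.6 and 117 CPM. List medians of the log2 ratio lay between −0.11 and 0.35 in these 6 lists, beside 0.16 for all genes.

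Of 12 genes known to act upstream of Arg1 or Nos2, 2 were lower and 1 was higher over mononuclear phagocytes, with a list median of −0.14. Of all genes there, 2.68% were lower and 7.23% higher, so the 1 higher gene is near that share. Cebpb, a transcription factor of myeloid cells, was the most abundant, at 1405 and 566 CPM, and its log2 ratio was −1.16 in monocyte-like cells, −1.01 in C1q-low phagocytes, −1.0 in C1q macrophage-like cells and −1.03 in neutrophil-like cells. The other gene of the list past 2-fold and lower was Hif1a, the oxygen-regulated factor, at 554 and 240 CPM, and the higher one was Pparg, a nuclear receptor, at 28.5 and 65.9 CPM. Hif1a and Pparg were named after their values were seen. In neutrophil-like cells Hif1a had a log2 ratio of 0.10 [−0.01, 0.22], beside a median of 0.54 over all genes of that class. A link between the genes of this list and Arg1 or Nos2 was not tested.

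Across the 16 sums of a class in a library with at least 50 cells, the genes whose log2(CPM + 10) was most like Arg1, among 6017 genes, were Ecm1 (Pearson's r of 0.92), Sdc1 (0.92), Ednrb (0.91), Mmp14 (0.91) and Spryd7 (0.90). For Nos2 they were Ereg (0.92), Tarm1 (0.91), Fpr3 (0.91), Cxcl3 (0.90) and A530046M15Rik (0.90), each highest in neutrophil-like cells of control IgG. For Slc7a2 they were Il1r1 (0.89), Pim3 (0.89), Fn1 (0.87), Rai14 (0.84) and Phldb1 (0.83). Arg2 was followed by Tnfaip2, Il1rn and Marcksl1 (0.96 each), Ass1 by genes that include Anxa7 (0.93) and Map4k4 (0.90), and Odc1 by Cdc5l (0.95), Hspa4 (0.94) and Actl6a (0.94). The sums share their libraries and their depth, so these are descriptions without a test.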

How the data were processed

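RNA of CD45 bead-sorted mouse cells was measured with a droplet-based kit in 2 libraries, 1 per group. The deposited values are raw UMI counts from Cell Ranger 7.1.0, and the submitters' processing notes name GRCm39. They cover all barcodes (1084690 in control IgG, 1548857 in anti-CD3L1) and with no cell call, so that 74850604 and 108246719 UMIs were available, 67296569 and 97909163 of them in the cells kept. The authors' table of macrophage genes holds their own fold changes, shares of cells and Wilcoxon p-values with cells as units, and it was not used. The files give no coordinates. By the GENCODE annotation Arg2 overlaps Vti1b on the other strand, and the kit marks strand.

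Cells kept by their UMIs, genes and mitochondrial share were gated by UMIs of marker genes per 10000 UMIs: at least 20 of 7 neutrophil genes, at least 10 of 10 phagocyte genes, at least 5 of a small class's markers with 3 or more of them detected. Phagocytes with at least 5 of C1q were C1q macrophage-like, others with at least 20 of the monocyte genes monocyte-like, and the rest C1q-low. Cells passing more than 1 gate (327 and 561) were left out as possible doublets and as mixed. As an alternative, the 586 and 1016 cells most like simulated pairs of cells were left out. CPM of a class is its summed UMIs of the gene over its summed UMIs of all genes. The intervals were exact Poisson, conditional binomial or Clopper-Pearson at 95%, and a count of 0 was given the limit of 3 counts. Genes were tested in a class with at least 50 UMIs over both libraries, and called at 2-fold. A simulation with known changes was used to check the ratios and their intervals. It drew independent Poisson counts of class sums, as the intervals assume. It therefore cannot tell how they fare where few cells hold most UMIs of a gene. The members and lists were chosen with earlier results of these data known. Other genes named are the most abundant of each pathway list, the genes most alike in pattern (1 of which is not reported here), markers of the classes, and genes said to be chosen after their values were seen. Python 3.11.15 was used with numpy 2.4.6, scipy 1.17.1, pandas 2.3.3, scikit-learn 1.9.0, leidenalg 0.10.2, igraph 0.11.9 and matplotlib 3.10.9.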

Additional observations from a re-analysis of the deposited data

Results flagged for a closer look

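The log2 ratio of Slc7a2, anti-CD3L1 over control IgG, was −0.60 in monocyte-like cells and 2.37 in C1q macrophage-like cells, opposite directions under the same contrast. The difference between the classes was not tested, since each group has 1 library. Under graph clusters the values were 0.15 and 1.06.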

How the results depend on the processing

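Each level and ratio was recomputed with at least 1000 UMIs per cell, with under 10% mitochondrial UMIs, with stricter gates, with the mean of per-cell CPM, with another scaling, with free RNA subtracted, with graph clusters and without the highest doublet scores. After the data were seen, 2 alternatives were added, without cells of 10 or more UMIs of the gene and without neutrophil-like cells with granule genes. Of 32 log2 ratios, 27 kept their sign under graph clusters, 30 without the cells of 10 or more UMIs, and 31 or 32 under the others that covered all classes. Free RNA was subtracted for 27 ratios, since it was scaled by neutrophil genes, and all 27 kept their sign. In every alternative that covered it, Nos2 in neutrophil-like cells stayed within its counting interval of [−5.34, −3.65], which rests on 13 UMIs in anti-CD3L1. Free RNA was not subtracted for that class.

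Arg1 in monocyte-like cells (−2.89) stood at −3.17 with stricter gates, −3.40 with free RNA subtracted, −3.59 under graph clusters and −1.03 without cells of 10 or more UMIs. Over mononuclear phagocytes (−1.66) the same settings other than free RNA gave −1.81, −1.54 and −0.31, and the mean of per-cell CPM gave −1.87. In C1q macrophage-like cells (−0.34) Arg1 was −0.50 by that mean, 0.60 under graph clusters and 0.27 without cells of 10 or more UMIs, so the direction turned. Arg2 in neutrophil-like cells (0.29) was 0.17 with the other scaling, 0.39 under graph clusters and 0.48 without such cells. Nos2 in monocyte-like cells (−4.94) was −4.14 by the per-cell mean and −3.15 without such cells. Slc7a2 in C1q macrophage-like cells (2.37) was 2.03, 1.06 under graph clusters and 1.89. Ass1 in monocyte-like cells (−0.98) was −1.22 with stricter gates and −0.80 with free RNA subtracted. The share of Arg1-positive monocyte-like cells of control IgG with Nos2 (13%) was 26.2% after thinning to 2000 UMIs, 37.9% without thinning and 28.4% at 2 UMIs. The 5 ratios that changed sign under graph clusters were Arg1 in C1q-low phagocytes (0.045) and Ass1 in neutrophil-like cells (−2.11), both past 2-fold with the gates, Arg1 in C1q macrophage-like cells, Slc7a2 in monocyte-like cells (0.15) and Odc1 in NK-like cells (−0.37). The causes were not tested.

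No paired analysis was possible because each group has 1 library, and there was no replicate to leave out. The intervals hold no differences between tumors, mice or library preparations.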

Other observations

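The cells with and without a member gene differed in other genes of the same class and library. Cells were split on thinned UMIs, and for each split the 3 genes ranked highest and the 1 ranked lowest in cells with the member are given, chosen after their values were seen and with no test. In control IgG, 50 monocyte-like cells with a Nos2 UMI held 213 CPM of Saa1, an acute-phase gene, 190 of Stfa3, a stefin gene of neutrophils, and 102 of F3, the tissue factor gene, against 3.49, 4.43 and 3.03 CPM in 1052 cells without. The MHC class II gene H2-Aa was at 35.8 and 557 CPM. The members Arg1, at 320 and 136 CPM, and Ass1, at 303 and 157 CPM, were higher in the cells with Nos2, and Odc1, at 41.4 and 101 CPM, was lower.

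The 69 monocyte-like cells of control IgG with an Arg1 UMI held 386 CPM of the chemokine Pf4, 256 of the metalloproteinase gene Mmp9 and 141 of Stfa3, against 14, 11 and 2.48 CPM in 1033 cells without, and Chil3, a gene of classical monocytes, was at 7.76 and 99.1 CPM. In C1q-low phagocytes of control IgG, 68 cells with Arg1 held 213 CPM of Ppbp, 72.7 of Cxcl5 and 112 of Mmp12, against 0.403, 2.62 and 18.0 CPM in 413 cells without, while the MHC class II gene H2-Eb1 was at 65.3 and 748 CPM. The part of neutrophil RNA in these splits was not tested.

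In C1q macrophage-like cells of anti-CD3L1, 155 cells with Arg1 held 96.0 CPM of Plpp3, 80.9 of Bnip3, a gene of hypoxia and mitophagy, and 676 of Pf4, against 25.7, 24.3 and 271 CPM in 3630 cells without, and the heat-shock gene Hspa1b was at 254 and 836 CPM. Plpp3 and Pf4 were also higher in the monocyte-like cells of control IgG with Arg1, Plpp3 at 94.2 and 5.76 CPM. In C1q-low phagocytes of anti-CD3L1, 55 cells with Arg1 held 268 CPM of Ccl12, 681 of Ccl7 and 54.5 of AU022793. The 1200 cells without held 70.9, 217 and 13.6 CPM, and S100a9 was at 12.6 and 131 CPM. Pf4 was higher with Arg1 here too, at 249.5 and 94.5 CPM. Mmp9, higher in monocyte-like cells of control IgG with Arg1, was lower here, at 2.10 and 50.6 CPM. In neutrophil-like cells of control IgG, 715 cells with Nos2 held 80.5 CPM of Trim30c, 344 of F3 and 205 of Gbp5, an interferon-inducible GTPase. The 4721 cells without held 22.2, 123 and 73.4 CPM, and Camp was at 10.2 and 50.7 CPM. Few cells carried Camp, since 142 held 1232 of its 1402 UMIs in this class. Nos2 itself was not lower with granule genes, at 230 CPM [221, 240] in cells with a Camp, Ltf or Ngp UMI and 201 CPM [195, 207] without.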
